A study of Mus musculus with 12 samples.

Results

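The genes examined here make, use or clear isocitrate, 2-oxoglutarate and 2-hydroxyglutarate (2-HG). They were chosen by name and are 8 genes, Idh1, Idh2, Idh3a, Idh3b, Idh3g, D2hgdh, Ogdh and Adhfe1, of 43278 gene names in the table of the mutant experiment and 23928 in the table of the treatment experiment. All 8 were found once in each table. RNA-seq had been carried out on mouse embryonic fibroblasts (MEF cells) in 4 groups of 3 libraries. MEF cells were isolated from C57BL/6 embryos at embryonic day 13.5 and had become immortal spontaneously in culture. A retrovirus had brought a FLAG-tagged cancer-associated hotspot mutant of human IDH2 into the 2MUT cells, which expressed it stably, and the mock vector into the Control cells, and both were selected with puromycin. 2-HG(+) cells were MEF cells kept for 24 h with 300 μM of a membrane-permeant 2-HG ester, octyl-(R)-2HG. 2-HG(-) cells are DMSO-treated in the labels, while the text of the study calls them non-treated. The mutant and the treated cells were each compared with their own controls, to set the effect of the mutant enzyme beside that of its product given from outside. Cells with wild-type IDH2 were made in the study but are not among these libraries. In 2MUT the mutation and the added IDH2 itself therefore cannot be told apart. Whether the 3 libraries of a group came from separate cultures is not stated, so the p-values measure only the spread between these libraries.

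Isocitrate dehydrogenases convert isocitrate to 2-oxoglutarate. Idh1 encodes the NADP-dependent enzyme of the cytosol and peroxisomes and Idh2 its mitochondrial counterpart, while Idh3a, Idh3b and Idh3g encode the subunits of the NAD-dependent enzyme of the tricarboxylic acid (TCA) cycle. Cancer-associated mutants of IDH1 and IDH2 gain the ability to reduce 2-oxoglutarate to D-2-HG, also called (R)-2-HG, which inhibits many 2-oxoglutarate-dependent dioxygenases. D2hgdh encodes the mitochondrial enzyme that oxidises D-2-HG back to 2-oxoglutarate, Adhfe1 a transhydrogenase that forms D-2-HG, and Ogdh the first component of the 2-oxoglutarate dehydrogenase complex.

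The values are RPM, the reads of a gene for each 1000000 reads counted, from libraries in which a targeted panel amplified a short stretch of each transcript. The panel yielded 6472436 to 7313602 reads per library in the mutant experiment and 14959318 to 18363768 in the treatment experiment, so 3 reads correspond to 0.41 to 0.464 RPM and to 0.163 to 0.201 RPM, respectively. Levels of different genes are not compared, since each rests on its own amplicon. The summed level of 11 fibroblast markers was 15041 to 17011 RPM in Control and 13378 to 13822 RPM in 2MUT, and that of the 10 listed in the other table was 21646 to 23290 RPM in 2-HG(-) and 15256 to 16280 RPM in 2-HG(+). Of the 9 tested in each comparison, 1 was higher and 7 were lower in 2MUT and 1 was higher and 5 were lower with 2-HG, and their part in the results below was not tested. The epithelial markers Epcam and Krt18 were at 0 in all 12 libraries, and the summed levels of the epithelial, endothelial, haematopoietic, neural and muscle markers did not exceed 13.5 RPM in any library. The neural sum, most of it Tubb3, a neuronal tubulin, was 1.32 to 1.74 RPM in 2-HG(-) and 5.36 to 6.27 RPM in 2-HG(+), and 7.69 to 10.8 RPM in Control and 11.3 to 13.5 RPM in 2MUT. The haematopoietic sum, most of it the macrophage marker Cd68, was 11.1 to 13.4 RPM in 2-HG(-) and 7.8 to 9.67 RPM in 2-HG(+), and 6.98 to 12.4 RPM in Control and 6.47 to 6.95 RPM in 2MUT. Sox10 and Gfap, the other neural markers, and Ptprc and Itgam, the other haematopoietic ones found in both tables, stayed under 1 RPM on average. The part of these markers in the results was not tested either. In bulk RNA, fewer cells of a kind and less RNA per cell cannot be told apart.

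Idh1, Idh2 and Idh3a changed in both experiments, each in opposite directions, while Idh3b passed the test in 2MUT but not with 2-HG and Idh3g in neither. In 2MUT, Idh1 rose and Idh2, Idh3a and Idh3b fell. With 2-HG, Idh2 and Idh3a rose and Idh1 fell. Changes were tested with limma on log2(RPM + 1) in genes that averaged at least 1 RPM, and a Benjamini-Hochberg adjusted p under 0.05 was the threshold. In 2MUT, 1 of the 8 genes was higher and 4, Adhfe1 included, were lower, beside 16.5% and 17.3% of the 11065 genes tested. In the 2-HG treatment, 2 were higher and 1 was lower, beside 16.1% and 16.7% of 10384 genes, so the count of the 8 genes called with 2-HG is near that background. All 8 passed the filter on low values in both comparisons, but Adhfe1 passed it only through the control libraries of each, with means of 0.241 RPM in 2MUT and 0.75 RPM in 2-HG(+). Without Adhfe1, 1 of 7 was higher and 3 were lower in 2MUT, and 2 were higher and 1 was lower with 2-HG. edgeR and DESeq2, run on the recovered reads, called the same genes among the 8 in the same directions. The libraries of the 2 groups did not overlap for 6 of the 8 genes in 2MUT, or 5 of 7 without Adhfe1, and for 4 of the 8 with 2-HG, beside 47.5% and 46.3% of all genes tested. The median log2 fold change of the 8 genes was -0.28 in 2MUT, where that of all genes was 0.01, and -0.10 with 2-HG, where that of all genes was -0.02. Without Adhfe1 the medians were -0.17 and -0.04.

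**Figure D1:**
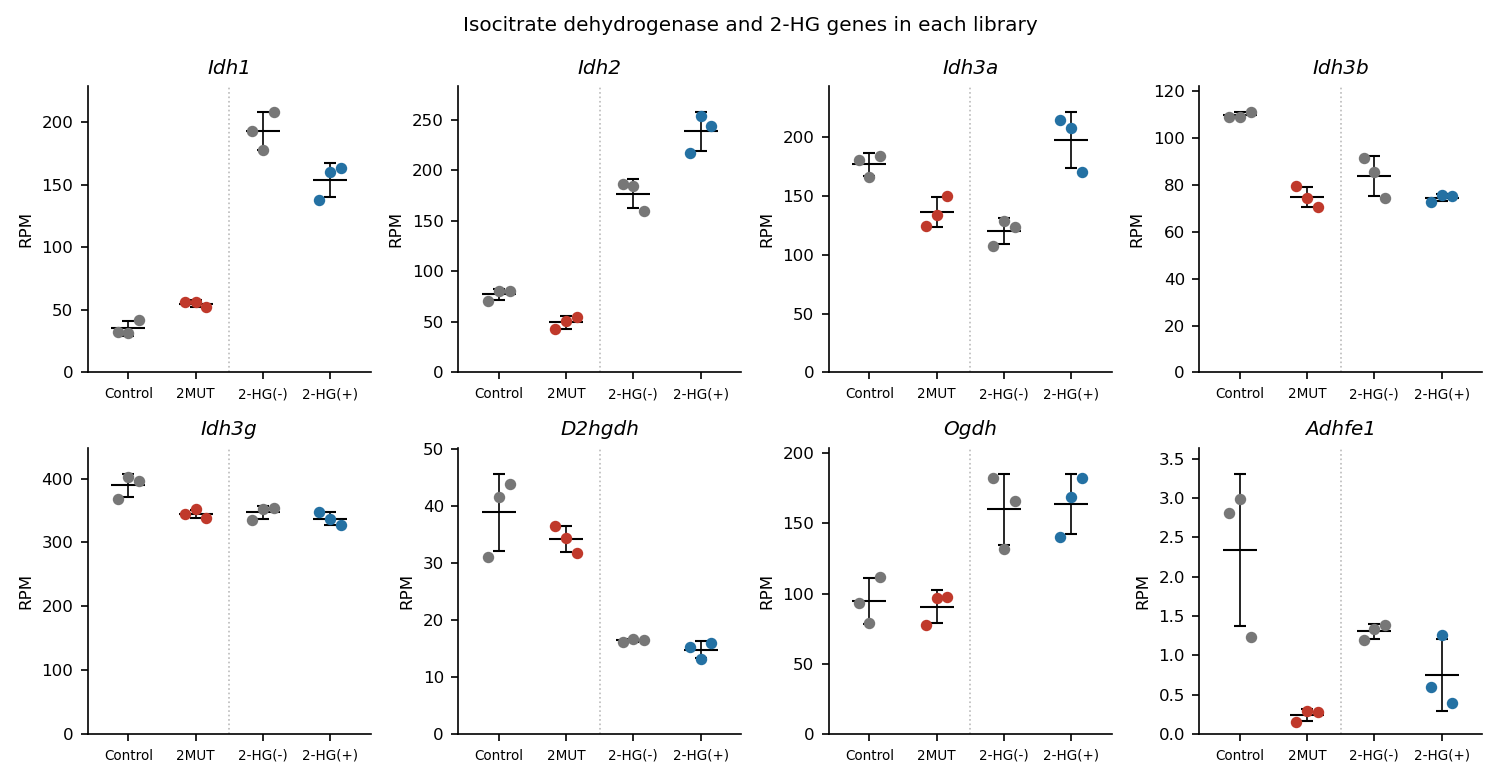
RPM (vertical axes, each starting at 0) of the 8 genes in the 12 libraries. Points are libraries, horizontal marks are group means and bars are SD with n = 3, and the dotted line separates the tables, whose levels are not compared. Idh1 is higher and Idh2, Idh3a and Idh3b are lower in each 2MUT library than in each Control library, while Idh2 and Idh3a are higher in each 2-HG(+) library than in each 2-HG(-) library.

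Idh1 lies on the reverse strand of mouse chromosome 1, at chr1:65158616-65186500 of GRCm38 (GENCODE M21), and Idh2 on the reverse strand at chr7:80094846-80115392. Because these NADP-dependent enzymes moved in opposite directions, a stretch of each promoter is shown. The RefSeq promoter table of GRCm38.p6 held an entry for 6 of the 8 genes, and for each entry the 250 bases before the start site were searched on both strands for a GC box, a CCAAT box, an E box and a TATA box. The 200 bases farthest from the start are printed 5′ to 3′ on the strand of the gene, with motif matches in capitals, at chr1:65186530-65186729 for Idh1 and at chr7:80115401-80115600 for Idh2.
Idh1: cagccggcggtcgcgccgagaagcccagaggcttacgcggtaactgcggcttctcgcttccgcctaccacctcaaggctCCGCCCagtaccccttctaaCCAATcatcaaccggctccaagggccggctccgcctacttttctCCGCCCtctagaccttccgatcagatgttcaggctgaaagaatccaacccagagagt
Idh2: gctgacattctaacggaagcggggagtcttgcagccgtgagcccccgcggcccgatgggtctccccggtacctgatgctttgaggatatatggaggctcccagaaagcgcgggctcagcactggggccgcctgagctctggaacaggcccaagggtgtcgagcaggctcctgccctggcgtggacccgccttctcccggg
The Idh1 window held 2 GC boxes on the opposite strand, beginning 171 and 107 bases before the start, and a CCAAT box beginning 151 bases before it. The Idh2 matches all lay in the last 50 bases, which are not printed, with GC boxes beginning 38 and 18 bases and a CCAAT box beginning 44 bases before the start. The GC box was searched as GGGCGG and occurred in 32.7% of 32851 promoter windows of the same length. The CCAAT box, searched by the letters of its name, occurred in 33.8%. The E box was searched as CACGTG, occurred in 6.02% of all windows and in neither of these. The TATA box was searched as TATAAA, occurred in 12.4% of all windows and likewise in neither of these. None of these motifs overlaps another in the printed windows. Matches describe the letters only. RefSeq lists a second Idh1 start site farther downstream, at position 65179142, whose window held 1 GC box, beginning 19 bases before it.

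Idh1 was measured at 32.3, 31.2 and 42.1 RPM in the 3 Control libraries and at 56.4, 56.5 and 52.0 RPM in the 3 2MUT libraries. The lowest 2MUT library was above the highest Control library. The mean rose from 35.2 ± 6.02 to 55.0 ± 2.56 RPM (SD over 3 libraries). On the log2 scale this was 0.64 (SE 0.14, limma adjusted p = 0.0047). In the treatment experiment Idh1 was at 193, 178 and 208 RPM in 2-HG(-) and at 138, 160 and 163 RPM in 2-HG(+). Here every treated library lay below every control library, and the log2 fold change was -0.33 (SE 0.10, limma adjusted p = 0.039). This smaller change depended on single libraries. Its adjusted p was 0.097 without 2-HG(+) replicate 1, 0.075 without 2-HG(+) replicate 2, 0.087 without 2-HG(-) replicate 1 and 0.15 without 2-HG(-) replicate 3, with log2 fold changes of -0.38 to -0.25 over the 6 libraries left out in turn. In 2MUT the Idh1 call held without any 1 of the 6 libraries, with log2 fold changes of 0.56 to 0.77.

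Idh2 moved the other way in each experiment. The Control libraries had 70.9, 80.8 and 80.1 RPM and the 2MUT libraries 42.6, 51.1 and 55.2 RPM, without overlap. Control averaged 77.3 ± 5.54 RPM and 2MUT 49.6 ± 6.39 RPM, and the log2 fold change of -0.63 (SE 0.13) had a limma adjusted p of 0.003. These values are of the mouse gene as the panel reports it. The introduced enzyme is human, its own transcript has no entry used here, and whether any of its reads were counted as mouse Idh2 was not tested. With 2-HG, Idh2 rose from 186, 184 and 160 RPM to 217, 254 and 244 RPM, again without overlap. The log2 fold change was 0.43 (SE 0.10, limma adjusted p = 0.011), and the adjusted p was 0.052 without 2-HG(+) replicate 2 and 0.055 without 2-HG(-) replicate 3.

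The ratio of Idh1 to Idh2 within a library, which no scaling of the library can alter, is given as a description, since the opposite changes of these genes fix its direction. It was 0.455, 0.386 and 0.526 in Control and 1.32, 1.11 and 0.943 in 2MUT, a ratio 2.46-fold higher in 2MUT. In the treatment experiment it was 1.04, 0.967 and 1.30 in 2-HG(-) and 0.637, 0.628 and 0.668 in 2-HG(+), a ratio 1.69-fold lower in 2-HG(+). The groups did not overlap in either experiment, and with 3 libraries against 3 an exact two-sided permutation test cannot give a p below 0.10. The controls of the experiments themselves differed. Control and 2-HG(-) averaged 35.2 and 193 RPM for Idh1 and 77.3 and 176 RPM for Idh2. The tables list different sets of genes and were made from libraries of different depth, so these levels are set side by side and not tested.

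**Figure D2:**
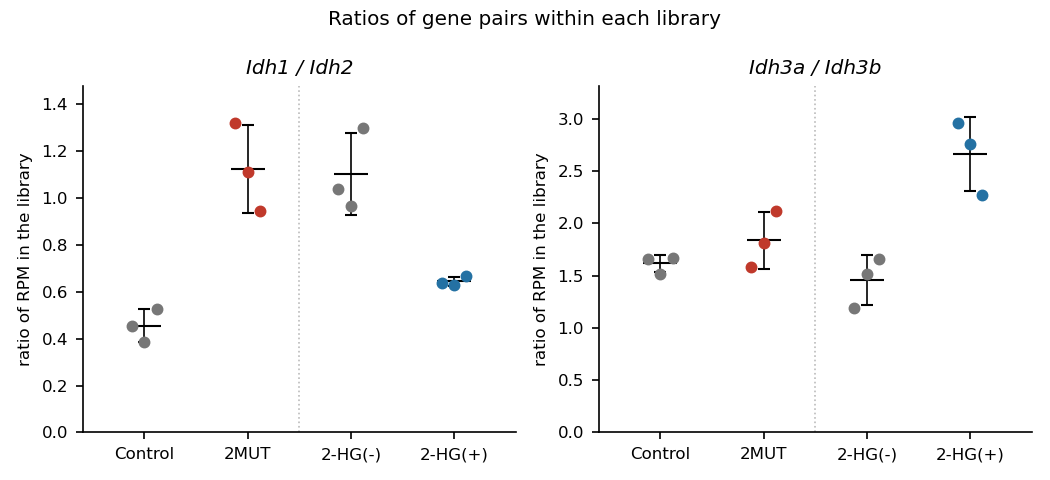
Ratio of the RPM of Idh1 to that of Idh2 (left) and of Idh3a to that of Idh3b (right) in each library, with means and SD bars (n = 3). The Idh1 to Idh2 ratio is higher in 2MUT, at 0.943 to 1.32 against 0.386 to 0.526, and lower in 2-HG(+), at 0.628 to 0.668 against 0.967 to 1.30, while the Idh3a to Idh3b ratio is separated only by the 2-HG treatment.

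The subunits of the NAD-dependent enzyme all had lower means in 2MUT, where Idh3a and Idh3b passed the test, and with 2-HG only Idh3a of the 3 passed it. Idh3a, the catalytic subunit, lies on the forward strand at chr9:54586334-54604661. It had 181, 166 and 184 RPM in Control and 125, 134 and 150 RPM in 2MUT, with every 2MUT library below every Control library. The log2 fold change was -0.38 (SE 0.10, limma adjusted p = 0.016). The call was lost without 2MUT replicate 1 (adjusted p = 0.076) and without 2MUT replicate 2 (adjusted p = 0.057). It was also lost by limma without the mean-variance trend (adjusted p = 0.052) and by an unmoderated test for each gene (adjusted p = 0.059). With 2-HG, Idh3a rose from 108, 129 and 124 RPM to 215, 208 and 171 RPM. This was the largest change of the 8 genes with 2-HG on the log2(RPM + 1) scale, at 0.71 (SE 0.12, limma adjusted p = 0.0016), and it held with any 1 of the 6 libraries left out, at 0.64 to 0.81.

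Idh3b encodes a subunit needed for the assembly and activity of the same enzyme and lies on the reverse strand at chr2:130279309-130284547. Its 3 Control libraries were close together, at 109, 109 and 111 RPM, and its 2MUT libraries had 79.3, 74.2 and 70.7 RPM. The mean fell from 110 ± 0.718 to 74.7 ± 4.29 RPM, a log2 fold change of -0.55 (SE 0.10, limma adjusted p = 0.0017). With 2-HG, Idh3b had 91.4, 85.4 and 74.5 RPM in 2-HG(-) and 72.7, 75.5 and 75.3 RPM in 2-HG(+). These groups overlapped, and the log2 fold change of -0.16 (95% confidence interval -0.40 to 0.07) did not pass the test. The gene model of Idh3b overlaps that of Nop56, a ribosome assembly factor, on the opposite strand. The limma log2 fold change of Nop56 was -0.44 in 2MUT (adjusted p = 0.0047) and 1.19 with 2-HG (adjusted p = 0.00011), and whether the counting separated strands is not given in the sources used here.

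Idh3g, a regulatory subunit on the reverse strand at chrX:73778963-73786897, had 368, 403 and 397 RPM in Control and 344, 352 and 339 RPM in 2MUT. These groups did not overlap, but the log2 fold change of -0.17 (95% confidence interval -0.36 to 0.01) had a limma adjusted p of 0.14. It had 336, 353 and 354 RPM in 2-HG(-) and 348, 337 and 327 RPM in 2-HG(+), which overlapped, and a log2 fold change of -0.04 (95% confidence interval -0.24 to 0.15). The ratio of Idh3b to Idh3g was 0.272 to 0.297 in Control and 0.208 to 0.231 in 2MUT, without overlap. It was 0.21 to 0.272 in 2-HG(-) and 0.209 to 0.23 in 2-HG(+), with overlap. The ratio of Idh3a to Idh3g was 0.413 to 0.493 in Control and 0.364 to 0.442 in 2MUT, with overlap, and 0.323 to 0.367 in 2-HG(-) and 0.523 to 0.619 in 2-HG(+), without overlap. The ratio of Idh3a to Idh3b was 1.52 to 1.67 in Control and 1.58 to 2.12 in 2MUT, with overlap, and 1.19 to 1.66 in 2-HG(-) and 2.27 to 2.96 in 2-HG(+), without overlap. Of the 3 ratios, 2 thus overlapped between Control and 2MUT. An exact two-sided permutation test of 3 libraries against 3 cannot give a p below 0.10, so these ratios are a description.

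D2hgdh, which clears D-2-HG, passed the test in neither experiment. It lies on the forward strand at chr1:93824909-93852348 and had 31.1, 41.6 and 43.9 RPM in Control and 36.5, 34.3 and 31.8 RPM in 2MUT. The groups overlapped, with a log2 fold change of -0.17 (95% confidence interval -0.50 to 0.17, limma adjusted p = 0.42). In the treatment experiment it had 16.1, 16.7 and 16.5 RPM in 2-HG(-) and 15.3, 13.1 and 15.9 RPM in 2-HG(+). These groups did not overlap, but the log2 fold change of -0.15 (95% confidence interval -0.43 to 0.13) did not pass the test either (limma adjusted p = 0.39). The intervals allow a fall of at most 0.50 and 0.43 on the log2 scale. Of all runs of 60 bases in D2hgdh transcripts, 15.0% also occur in Gm18666 and 12.6% in Gm7889, so reads could be shared. Both were listed at 0 in the mutant experiment.

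Ogdh also showed no change that passed the test. It lies on the forward strand at chr11:6291633-6356642 and had 93.1, 78.9 and 112 RPM in Control and 77.3, 97.2 and 97.7 RPM in 2MUT. In the treatment experiment it had 182, 132 and 166 RPM in 2-HG(-) and 140, 169 and 182 RPM in 2-HG(+). The libraries of 1 group differed as much as the groups did. The log2 fold change was -0.05 in 2MUT (95% confidence interval -0.37 to 0.26) and 0.03 with 2-HG (95% confidence interval -0.28 to 0.35), and the sign of both depended on which library was left out.

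Adhfe1, the D-2-HG-forming transhydrogenase, was the least read of the 8 genes in both tables and lies on the forward strand at chr1:9547948-9580673. It had 19, 21 and 9 reads in the Control libraries and 1, 2 and 2 reads in the 2MUT libraries, or 2.81, 2.99 and 1.23 RPM and 0.155, 0.293 and 0.275 RPM. The 2MUT libraries were each below the level of 3 reads. Pooled, the 49 Control reads against 5 2MUT reads gave a level 9.56-fold higher in Control, with an exact 95% interval of 3.83 to 30.7 that covers counting error only. The limma log2 fold change of -1.39 (SE 0.29, adjusted p = 0.0038) is given as a value only, since the gene passed the filter only through Control. It depended on the value added before the logarithm, and the fitted values over the other settings ran from -3.27 to -1.38. Without Control replicate 1 or Control replicate 2 the gene no longer passed the filter. In the treatment experiment the 2-HG(-) libraries held 22, 20 and 23 Adhfe1 reads and the 2-HG(+) libraries 9, 21 and 6. The groups overlapped through 2-HG(+) replicate 2, and the log2 fold change of -0.43 (95% confidence interval -0.86 to 0.01) had a limma adjusted p of 0.12. The fitted values over the other settings ran from -0.86 to -0.25. Pooled, 65 reads against 36 gave a level 1.7-fold higher in 2-HG(-), with an exact 95% interval of 1.11 to 2.63 that covers counting error only. The non-coding gene 2610203C22Rik overlaps Adhfe1 on the opposite strand. It averaged 0.608 RPM in Control and 3.07 RPM in 2MUT and so passed the filter only through 2MUT, and its limma log2 fold change of 1.36 (adjusted p = 0.0018) is likewise a value only.

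The change in 2MUT was then set against the change with 2-HG in 1 fit over the 12 libraries, a test of the difference itself. It passed the threshold for 5 of the 8 genes, beside 39.4% of the 9610 genes tested in both experiments, and for 4 of 7 without Adhfe1. The difference, 2MUT change minus 2-HG change, was 0.97 for Idh1 (SE 0.17, limma adjusted p = 0.00059), -1.07 for Idh2 (SE 0.16, adjusted p = 0.00016) and -1.09 for Idh3a (SE 0.16, adjusted p = 0.00013). For these 3 genes the changes had opposite signs, and the difference passed the threshold without any 1 of the 12 libraries. For Idh3b it was -0.39 (adjusted p = 0.036), with the same sign of change in both experiments. This difference was less stable. The adjusted p of Idh3b was 0.052 to 0.099 without Control replicate 1, 2 or 3, 2MUT replicate 2 or 3, 2-HG(-) replicate 3 or 2-HG(+) replicate 2 or 3. For Adhfe1, which passed the filter only through the control libraries, the difference of -0.96 (adjusted p = 0.038) is given as a value only. It ran from -1.92 to -0.96 over the other settings, and its adjusted p was 0.054 to 0.073 without 2MUT replicate 1, 2 or 3 or 2-HG(+) replicate 1. The gene could be refitted with 6 of the 12 libraries left out in turn and passed in 2 of these refits, since it otherwise fell under the filter. For Idh3g, D2hgdh and Ogdh the difference was -0.13, -0.02 and -0.09, and the 95% confidence intervals ran from -0.36 to 0.11, from -0.44 to 0.40 and from -0.56 to 0.39.

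**Figure D3:**
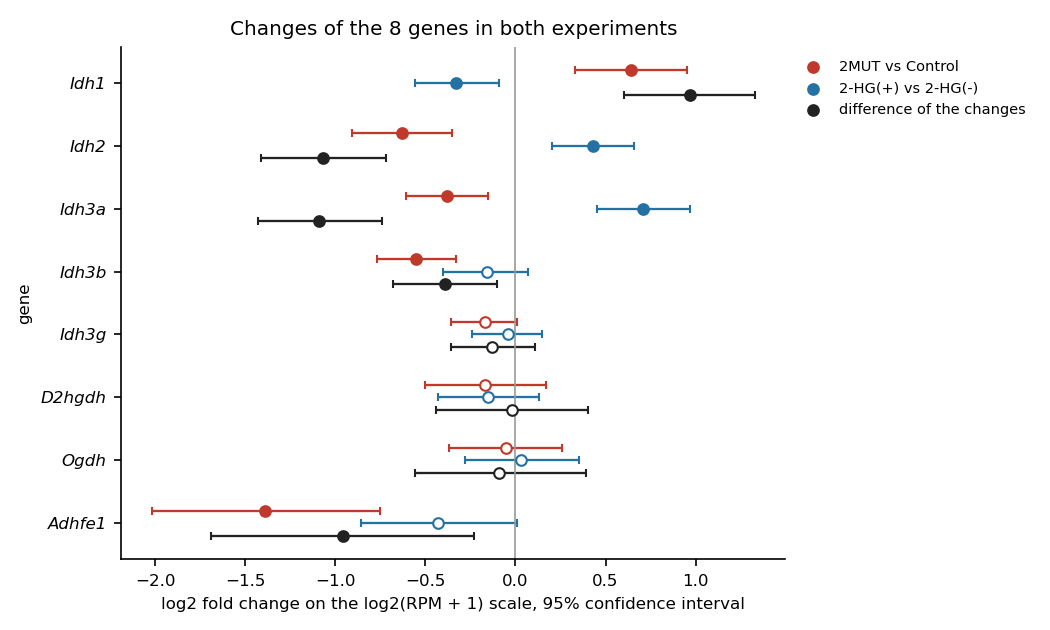
Log2 fold change (horizontal axis, log2(RPM + 1) scale) of the 8 genes in 2MUT and with 2-HG and the difference of these changes, as limma estimates with 95% confidence intervals. Filled points passed an adjusted p of 0.05 and open points did not. Idh1, Idh2 and Idh3a lie on opposite sides of 0 in the experiments, with differences of 0.97, -1.07 and -1.09.

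The genes around these 8 were described from 7 lists, of which 43 genes are reported here. In 2MUT, 37 of them were tested, 2 were higher and 5 were lower, or 4 of 36 lower without Aldh1l1, which passed the filter only through Control. At an unadjusted p under 0.05, 5 were higher and 9 lower in 2MUT, edgeR on the recovered reads called 2 and 5, and DESeq2 4 and 8. With 2-HG, 35 were tested by limma, 13 were higher and 0 were lower. Here 14 were higher and 0 lower at an unadjusted p under 0.05, as they were by edgeR and by DESeq2. A share of 16.5% to 17.3% of all genes in each direction is the background for the first comparison and 16.1% to 16.7% for the second.

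Among 10 further enzymes of the TCA cycle reported here, 9 were tested in 2MUT and 9 with 2-HG. In 2MUT 3 of these fell, beside 17.3% of all genes, and with 2-HG 2 rose, beside 16.1%. On the recovered reads, edgeR called 3 lower in 2MUT and DESeq2 5, and each called 3 higher with 2-HG. The median log2 fold change of the list was -0.28 in 2MUT and 0.17 with 2-HG, beside 0.01 and -0.02 for all genes. Fh1, fumarase, had 100, 124 and 121 RPM in Control and 64.9, 63.7 and 62.1 RPM in 2MUT. Its log2 fold change was -0.84 (limma adjusted p = 0.00026). Sdhd, a membrane anchor of succinate dehydrogenase, fell from 359, 341 and 309 RPM to 255, 251 and 250 RPM (log2 fold change -0.41, adjusted p = 0.0051). With 2-HG, Suclg1, a subunit of succinyl-CoA synthetase, rose by 0.42 (adjusted p = 0.013) and Sdhb, the iron-sulphur subunit of succinate dehydrogenase, by 0.39 (adjusted p = 0.011). The Suclg1 call was lost without 2-HG(-) replicate 3 (adjusted p = 0.057) or 2-HG(+) replicate 2 (0.055). It was also lost by an unmoderated test for each gene (adjusted p = 0.059). The Sdhb call was lost by limma with a block for replicate number (adjusted p = 0.05).

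Ogdh works in a complex with Dlst and Dld. Of the 5 partners and relatives of Ogdh listed, 4 were tested. By limma 0 passed in 2MUT, with log2 fold changes of -0.34 to -0.10, 0 by edgeR or DESeq2, and 1 at an unadjusted p under 0.05. With 2-HG, Dld, the dihydrolipoamide dehydrogenase that several dehydrogenase complexes share, rose from 259, 271 and 261 RPM to 356, 366 and 357 RPM (0.45, limma adjusted p = 0.0032). The other 3 had -0.21 to 0.17. Of 3 other enzymes that can form 2-HG, 2 were tested. By limma 0 passed in 2MUT, with 1 by DESeq2, 0 by edgeR and 1 at an unadjusted p under 0.05, and with 2-HG 1 passed. Ldha, a lactate dehydrogenase that can also reduce 2-oxoglutarate, rose from 3068, 3322 and 3378 RPM to 5684, 4682 and 4358 RPM with 2-HG (0.58, adjusted p = 0.0076). The Ldha call was lost by limma without the filter on low values (adjusted p = 0.061).

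Enzymes that form 2-oxoglutarate from glutamate or use it to accept an amino group made up another list, with 9 genes reported here. All 9 were tested in 2MUT, where 1 fell, beside 17.3% of all genes. With 2-HG 7 were tested and 4 rose, beside 16.1% of all genes. Got1, the cytosolic aspartate aminotransferase, fell from 50.0, 59.0 and 66.9 RPM to 37.7, 40.1 and 43.1 RPM in 2MUT (-0.52, limma adjusted p = 0.012). It rose from 31.6, 25.2 and 27.0 RPM to 41.6, 51.9 and 51.5 RPM with 2-HG (0.77, adjusted p = 0.002). Got1 thus had changes of opposite sign, as Idh2 and Idh3a did. Its call in 2MUT was lost by an unmoderated test for each gene (adjusted p = 0.066). The largest rises of the list with 2-HG were those of Bcat1, the cytosolic branched-chain aminotransferase, from 102, 136 and 120 RPM to 453, 422 and 417 RPM (1.85, adjusted p = 5.7e-06), and of Gpt2, the mitochondrial alanine aminotransferase, from 19.3, 14.2 and 18.6 RPM to 49.6, 60.2 and 63.1 RPM (1.68, adjusted p = 4e-05). Their log2 fold changes in 2MUT were -0.21 (adjusted p = 0.18) and 0.09 (adjusted p = 0.62).

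Idh1 and Idh2 are also sources of NADPH. Of 10 other enzymes that form NADPH or belong to its folate-linked supply, 8 were tested in each experiment. In 2MUT, 2 rose and 1 fell, beside 16.5% and 17.3% of all genes. With 2-HG 5 rose and 0 fell, beside 16.1% and 16.7%. Of these 5, Mthfd1, a cytosolic folate enzyme, had a log2 fold change of 0.55 (limma adjusted p = 0.049), and the call was lost, at an adjusted p of 0.057 to 0.14, without 2-HG(-) replicate 1, 2 or 3 or 2-HG(+) replicate 2 or 3. It was also lost in 5 of 10 other settings. The median log2 fold change of the list was 0.14 in 2MUT and 0.60 with 2-HG, beside 0.01 and -0.02 for all genes. Pgd, the phosphogluconate dehydrogenase of the pentose phosphate pathway, rose from 60.5, 82.8 and 71.2 RPM to 153, 177 and 195 RPM in 2MUT (1.29, limma adjusted p = 5e-05). Its log2 fold change with 2-HG was 0.00 (95% confidence interval -0.44 to 0.44). Me2, a mitochondrial malic enzyme, rose in both, by 0.44 (adjusted p = 0.0088) and 0.65 (adjusted p = 0.0012). Aldh1l1, a cytosolic formyltetrahydrofolate dehydrogenase, fell in 2MUT from 3.40, 6.84 and 4.92 RPM to 0.618, 1.02 and 0.688 RPM (-1.74, adjusted p = 0.00056). With 4 to 7 reads in each 2MUT library and a 2MUT mean of 0.777 RPM, it passed the filter only through Control. Its change is therefore given as a value only, and without Aldh1l1 0 of 7 tested genes of the list fell. The mitochondrial folate enzymes had the largest changes with 2-HG. Aldh1l2 rose from 49.2, 43.5 and 45.9 RPM to 185, 231 and 268 RPM (2.26, adjusted p = 4.4e-06), and Mthfd2 from 56.6, 65.4 and 64.0 RPM to 235, 286 and 283 RPM (2.09, adjusted p = 2.2e-06). Their log2 fold changes in 2MUT were 0.16 (adjusted p = 0.38) and -0.15 (adjusted p = 0.41).

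Of 4 mitochondrial carriers of 2-oxoglutarate, citrate and related acids, 3 were tested. By limma, edgeR or DESeq2 0 passed in either experiment, and 1 in 2MUT and 0 with 2-HG had an unadjusted p under 0.05, with log2 fold changes of -0.12 to 0.46 in 2MUT and -0.06 to 0.22 with 2-HG. Neither the cytosolic aconitase Aco1 nor the citrate lyase Acly passed by limma or edgeR, and DESeq2 called Acly higher in 2MUT. So did limma with a block for replicate number (adjusted p = 0.015) and limma without Control replicate 3 (adjusted p = 0.0057). The log2 fold changes of Aco1 and Acly in the main limma fit were -0.20 and 0.46 in 2MUT and 0.02 and 0.26 with 2-HG. At an unadjusted p under 0.05, 1 passed in 2MUT and 0 with 2-HG.

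**Figure D4:**
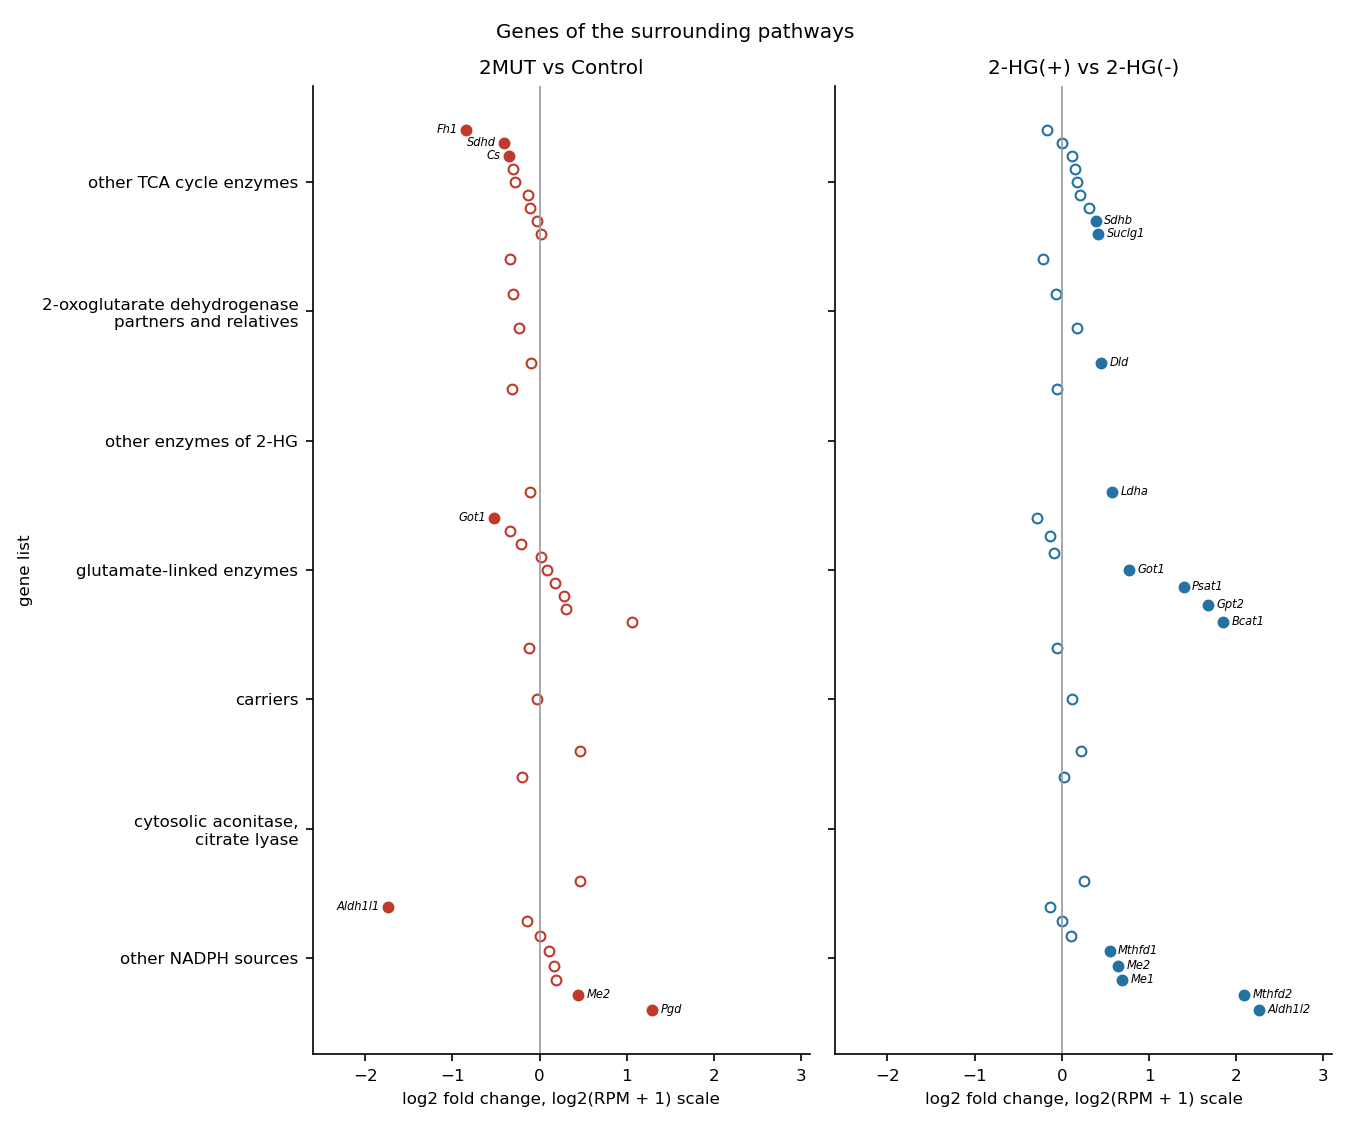
Log2 fold change (horizontal axis, log2(RPM + 1) scale) of the reported genes of 7 lists around the isocitrate dehydrogenases, in 2MUT (left) and with 2-HG (right). Each point is a gene, and filled, named points passed a limma adjusted p of 0.05, 2 higher and 5 lower in 2MUT and 13 higher and 0 lower with 2-HG. Of the 5 lower, Aldh1l1 passed the filter on low values only through Control.

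The genes whose levels followed Idh1 and Idh2 most closely were found over the 12 libraries, with each table centred on its own mean, among 6727 genes that averaged at least 10 RPM in both tables. For Idh1 these were Nfib, a transcription factor, with Pearson's r = 0.992, Deptor, an mTOR-binding inhibitor, with 0.978, and Grk5, a receptor kinase, with 0.965. For Idh2 they were Dctpp1, a nucleotide pyrophosphatase, with 0.973, Hat1, a histone acetyltransferase, with 0.971, and Pold2, a subunit of a DNA polymerase, with 0.964. The 12 points share the 2 contrasts and the libraries, so these values are a description of the closest patterns.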

How the data were processed

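RNA-seq of 12 MEF libraries was analysed, 3 in each of 4 groups taken from the labels. The authors amplified cDNA from 100 ng of RNA with an AmpliSeq panel and sequenced it on an Ion Proton. Reads were aligned by TMAP, and the AmpliSeqRNA plug-in gave the reads of each gene. The deposited values are RPM, in a separate table for each experiment. The genome build of their reference is not given in the sources used here. All low values were whole multiples of 1 read within 0.1 of a read, so read counts were recovered from the deposited RPM. No libraries agreed within sampling noise (chi-square per degree of freedom 5.88 to 33.11 within groups). limma 3.58.1 in R 4.3.3 was run with a mean-variance trend on log2(RPM + 1), within each table, on genes averaging at least 1 RPM. On simulated data, 36 of 66 genes changed by 0.5 on the log2 scale were recovered in the 2MUT comparison, and 44 of 66 in the 2-HG comparison. The simulation gave all genes the same dispersion and changed only a few of them, drawn above a minimum level. These shares therefore do not give the power for the 8 genes. The alternatives were edgeR 4.0.16 and DESeq2 1.42.0 on recovered reads, other scaling, filters, added values and tests, a replicate block, and leaving out each library. Named were the 8 genes, up to 2 rises and 2 falls of each list and comparison, and the 3 closest patterns to Idh1 and Idh2. Members and lists were chosen with earlier results of these data known. Positions are from GENCODE M21 (GRCm38) and promoters from RefSeq. Some listed genes are not reported here and are left out of the counts and medians of their lists.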

Additional observations from a re-analysis of the deposited data

Results flagged for a closer look

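For 5 of the 8 genes the change in 2MUT and the change with 2-HG differed by limma's test of the difference over the 12 libraries, beside 39.4% of the 9610 genes tested in both experiments. The difference, 2MUT change minus 2-HG change on the log2(RPM + 1) scale, was 0.97 for Idh1, -1.07 for Idh2, -1.09 for Idh3a, -0.39 for Idh3b and -0.96 for Adhfe1. Adhfe1 passed the filter on low values only through the control libraries, and its difference could be refitted with 6 of the 12 libraries left out in turn and passed in 2 of these refits. Its difference is therefore given as a value only. Without it the count was 4 of 7. The experiments differ in the cells, in the added IDH2, in the table and in the depth of the libraries as well as in the source of 2-HG. These cannot be told apart.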

How the results depend on the processing

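Of 393 values of the 8 genes under the alternatives, 351 kept their direction and their side of the threshold and 29 lost a call. Calls that no alternative or left-out library ended were those of Idh1, Idh2 and Idh3b in 2MUT, of Idh3a with 2-HG, and of the differences of Idh1, Idh2 and Idh3a. With an unmoderated test for each gene, 1021 genes were higher and 1223 lower in 2MUT and 1098 higher and 1139 lower with 2-HG, against 1826, 1915, 1668 and 1737, and 1 of the 8 genes was higher and 0 lower with 2-HG. The Idh1 fall with 2-HG was also lost, leaving 0 of the 8 genes lower, without the filter, without the trend and with the replicate block. Leaving out each library gave 1271 to 1926 higher and 1484 to 1880 lower genes in 2MUT and 1146 to 1745 and 1176 to 1580 with 2-HG. It gave 1 to 2 of the 8 genes higher and 0 to 1 lower with 2-HG, and 2 to 3 with a lower difference. Of the list genes in 2MUT, 4 were higher and 8 lower with DESeq2, 4 were higher with the replicate block, and 2 to 5 were higher with a library left out, against 2 and 5. Of the differences of list genes, 2 were higher with quantile normalization and 1 to 2 with a library left out, against 1. Values near 0 changed sign. Ogdh ran from -0.17 to 0.07 in 2MUT, from -0.10 to 0.14 with 2-HG (-0.02 with quantile normalization) and from -0.21 to 0.04 in the difference, D2hgdh from -0.17 to 0.07 in the difference, Suclg1 from -0.09 to 0.06 in 2MUT and Pgd from -0.19 to 0.19 with 2-HG (-0.06 with quantile normalization). The cause was not tested. Deviations of same-numbered libraries correlated with r of 0.071, 0.029 and 0.032 in the mutant experiment. In the treatment experiment these were -0.457, -0.158 and 0.057, so same-numbered libraries did not deviate together. Differently numbered libraries had r of -0.138 to 0.089 in the mutant experiment and -0.414 to 0.48 in the treatment experiment. The highest were 0.48 for 2-HG(-) replicate 2 with 2-HG(+) replicate 1 and 0.413 for 2-HG(-) replicate 1 with 2-HG(+) replicate 3. A factor shared by libraries of different number was not tested or modelled. With the replicate block 1911 genes were higher and 1987 lower in 2MUT, and 1217 and 1286 with 2-HG. Depth limits Adhfe1 most, at 1 to 2 reads in each 2MUT library. It could not be tested with a minimum of 10 RPM or without Control replicate 1 or 2, so its stability in 2MUT is not known.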
